A study of Mus musculus with 653 samples.

Results

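The cells described here are erythroid progenitors with little adult globin RNA, found among cells sorted from mouse livers at embryonic days E10.5 and E13.5. They were chosen by a rule on read counts. A cell entered with more than 10 reads of both Klf1 and Gata1, 2 transcription factor genes of the red cell lineage, and with under 2000 RPM (reads of a gene per 1000000 reads of the cell) summed over the adult globin genes Hba-a1, Hba-a2, Hbb-bs and Hbb-bt. The rule was met by 97 cells and not by the 556 other cells, a share of 14.9% (95% exact interval 12.2 to 17.8), and those that met it are called low-globin cells below. Of the other cells, 33 passed the Klf1 and Gata1 limits but held 2000 RPM of adult globins or more, and are called globin-high cells, and 523 lay outside the rule on Klf1 and Gata1.

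The embryos came from males carrying Lgr5-EGFP-IRES-creERT2, a reporter in which the Lgr5 locus drives EGFP and a tamoxifen-inducible Cre, kept on a C57BL/6 background and mated with MF1 females. Cells positive for the fetal liver surface marker Liv2 and negative for CD31 and CD45, which removes most endothelium and leukocytes, were sorted either as bulk cells or as cells that were also Lgr5-GFP+. This gave 4 groups, bulk and Lgr5-GFP+ cells of each stage. The livers of the earlier stage were digested for a shorter time, so digestion and stage cannot be told apart. Neither animals, litters nor cultures are named in the labels, which give 5 library pools. So each group was 1 sample, no test was made, and intervals cover counting error at most. Values are therefore given with their range over pools. The labels do not tie the pools to sorts or litters. Pools may share a sort, so they are not counted as replicates.

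Red cells arise from progenitors that divide under the control of Kit, the receptor for stem cell factor, and of the erythropoietin receptor. Gata1 and Klf1 then switch on the genes for haem synthesis, the membrane skeleton and globin, while Myb, a factor that holds progenitors in division, falls as cells mature. In mouse embryos the first wave of red cells comes from the yolk sac and makes embryonic globins, and the fetal liver takes over with a definitive wave that makes adult globins.

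The promoters of 5 erythroid genes that the low-globin cells expressed are shown, because each holds a copy of the GATA motif, the short sequence to which Gata1 can bind. The motifs AGATAA and TGATAA were searched on both strands in windows from 250 bases before to 50 bases after each RefSeq start site on GRCm38.p6. Each line gives the 120 bases 5′ to 3′ on the strand of the gene that end just before the RefSeq start, or before the start of the GENCODE gene where that lies further upstream. Capitals mark the motif, which reads TTATCA or TTATCT where it lies on the other strand.
Klf1, chr8:84901808-84901927, plus strand: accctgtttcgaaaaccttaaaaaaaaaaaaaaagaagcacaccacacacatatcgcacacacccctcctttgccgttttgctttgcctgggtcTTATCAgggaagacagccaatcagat
Rhag, chr17:40811006-40811125, plus strand: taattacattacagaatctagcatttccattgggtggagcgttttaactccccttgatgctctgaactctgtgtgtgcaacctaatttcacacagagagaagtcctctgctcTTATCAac
Ermap, chr4:119190012-119190131, minus strand: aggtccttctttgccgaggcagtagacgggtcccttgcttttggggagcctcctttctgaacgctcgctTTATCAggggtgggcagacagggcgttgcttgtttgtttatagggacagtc
Epor, chr9:21963577-21963696, minus strand: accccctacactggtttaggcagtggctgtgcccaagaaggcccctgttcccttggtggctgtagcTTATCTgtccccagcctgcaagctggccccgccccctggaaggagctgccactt
Pklr, chr3:89136022-89136141, plus strand: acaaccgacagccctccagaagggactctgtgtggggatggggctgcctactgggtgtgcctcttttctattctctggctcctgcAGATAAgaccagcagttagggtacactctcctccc

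The motif began 80 bases before the RefSeq start of Klf1, 31 before that of Rhag, 67 before that of Ermap, 54 before that of Epor and 35 before that of Pklr. The lines of Klf1, Rhag and Ermap end upstream of that start, so there the motif lies nearer to the end of the line. Of all 32851 windows, 18.6% held one of these motifs, so a match is a description and not a binding site. These 5 were picked for holding it. Neither motif was in the windows of Gata1, Myb, Kit, Gata2, Hbb-bt and Slc25a21, and of the windows of genes called higher than in all other cells 11.9% held one.

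Low-globin cells came almost wholly from the bulk sorts. There were 26 such cells in the E10.5 bulk sort, 12.8% of it (8.54 to 18.2), and 70 in the E13.5 bulk sort, 44.03% of it (36.2 to 52.1). Among the Lgr5-GFP+ cells there were 0 at E10.5, which allows a share of up to 1.42% (3 cells of the total), and 1 of 80 at E13.5 (1.25%). In the pools, the share of bulk cells ran from 2.38% to 28.6% at E10.5 and from 17.6% to 61.8% at E13.5. Pool 2 gave the lowest E13.5 share, and pools 1 and 2 held 1 low-globin cell of E10.5 each.

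The balance between low-globin and globin-high cells also differed with stage. At E10.5, 26 of the 27 cells over the Klf1 and Gata1 limits were low-globin cells (96.3%), against 71 at E13.5, where 32 were globin-high (68.9%). Of the 33 globin-high cells, 30 were bulk cells of E13.5, 2 were Lgr5-GFP+ cells of E13.5 and 1 was a bulk cell of E10.5.

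The globin limit cut through a wide range. Summed adult globin levels ran from 6.35 to 1925 RPM in the low-globin cells, with a median of 152.5 RPM, and from 2005 to 118784 RPM in the globin-high cells, with a median of 18110 RPM. The cells just below the limit held 1925, 1897 and 1896 RPM, and those just above it 2005, 2349 and 2542 RPM, so the limit did not fall into a gap. The Klf1 limit did: the members nearest to it had 34, 35 and 54 Klf1 reads, and the nearest cells left out by it had 5, 5 and 3. For Gata1, the nearest members had 13, 13 and 29 reads, and the nearest cells left out had 5, 5 and 4.

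**Figure D1:**
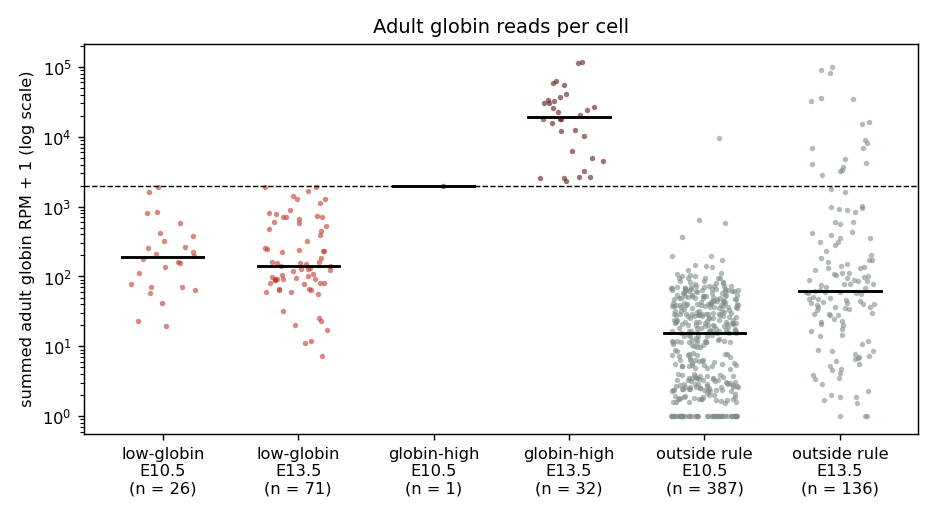
Summed adult globin RPM of each cell over the Klf1 and Gata1 limits, on a log10 axis, and outside them, by stage; the dashed line marks the limit of 2000 RPM and the bars the medians. Low-globin cells spread from 18.7 to 1897 RPM at E10.5 and from 6.35 to 1925 RPM at E13.5, and 32 of the 33 globin-high cells are of E13.5.

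The levels of the 4 adult globins themselves are uncertain. Only uniquely aligned reads were counted, and 72.3% of the 50-base windows of Hba-a1 and 89.3% of those of Hba-a2 occur in the other gene, as do 53.2% of those of Hbb-bs and 58.3% of those of Hbb-bt. Reads from such windows were lost, so the sums understate the globin RNA by a share that differs between the alpha and beta genes. The embryonic gene Hbb-bh1 and the genes Klf1 and Gata1 had no such windows.

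Reads per cell ran from 571050 to 2096858 in the low-globin cells, with a median of 1086178, close to the median of 1043696 in the globin-high cells. After each cell was thinned to 400000 reads, the low-globin cells had a median of 5528 detected genes, against 4911 in the globin-high cells and 4170 in the cells outside the rule. Before thinning these medians were 6435, 5723 and 5282 genes. The single low-globin cell from the Lgr5-GFP+ sort had 11908 detected genes, the most of any cell. Library index pairs were reused between pools, and 4 pairs were shared by low-globin cells of different pools.

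Of the label's markers, Klf1 and Gata1 were part of the rule, so only Myb and Rhag could bear on the name. Klf1 ran from 25.8 to 3682 RPM with a median of 886 RPM over the 97 cells, and Gata1 from 9.50 to 2402 RPM with a median of 339 RPM, both as the rule required. Myb, which the rule did not use, ran from 0 to 640.1 RPM with a median of 83.5 RPM, and 75 of the 97 cells had more than 10 reads of it. Only 26 of the 523 cells outside the rule and 1 of the 33 globin-high cells had as many. Rhag, a gas and ammonium channel of the red cell membrane, ran from 0 to 1366 RPM with a median of 224 RPM, with more than 10 reads in 65 of the 97 cells. It was also over 10 reads in 29 of 33 globin-high cells but in only 12 of 523 cells outside the rule. Rhag thus marked both classes of erythroid cells.

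The sort labels call every cell a liver hepatoblast cell, but the defining genes of hepatoblasts were near 0 here. Summed over 18 hepatoblast genes, the low-globin cells held 6.69 RPM, against 2594 RPM in the cells outside the rule. Afp, the fetal serum protein of hepatoblasts, was at 0.247 RPM and over 10 reads in none of the 97 cells, against 271 RPM outside the rule. Cholangiocyte genes summed to 0.458 RPM against 190.6 RPM, and mesenchyme genes to 13.2 RPM against 4909 RPM. Endothelium genes summed to 30.8 RPM against 528.1 RPM, but per cell their median sum was higher in the low-globin cells, at 3.07 RPM against 1.76 RPM, so the sum outside the rule came from a minority of cells. Their median log2 ratio against all other cells of −4.02 turned to 0.08 without cells with markers of another type in any class, a step that takes out cells with many endothelial reads. The step took out 443 of the 523 cells outside the rule but 3 of the 33 globin-high cells, which became a larger part of the rest. Of the genes used for sorting, Lgr5 was at 0.19 RPM and Ptprc, which encodes CD45, at 0.03 RPM, both over 10 reads in 0 cells. Pecam1, which encodes CD31, was at 8.47 RPM and over 10 reads in 8 cells.

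Markers of other blood cells were present in some low-globin cells. The 18 megakaryocyte genes summed to between 0 and 7102 RPM per cell with a median of 23.4 RPM, and the 18 leukocyte genes to between 0 and 1636 RPM with a median of 14.6 RPM. More than 10 reads of at least 3 markers were found for megakaryocytes in 12 cells, for leukocytes in 11 and for endothelium in 2, which made 17 of the 97 cells in all. These were 9 of the 26 E10.5 cells and 8 of the 71 E13.5 cells, against 3 of the 33 globin-high cells. In the globin-high cells the markers were of hepatoblasts in 2 cells and of leukocytes in 1. Doublets were not called, so whether such cells hold RNA of another cell was not tested, and the values that matter are given below without them.

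**Figure D2:**
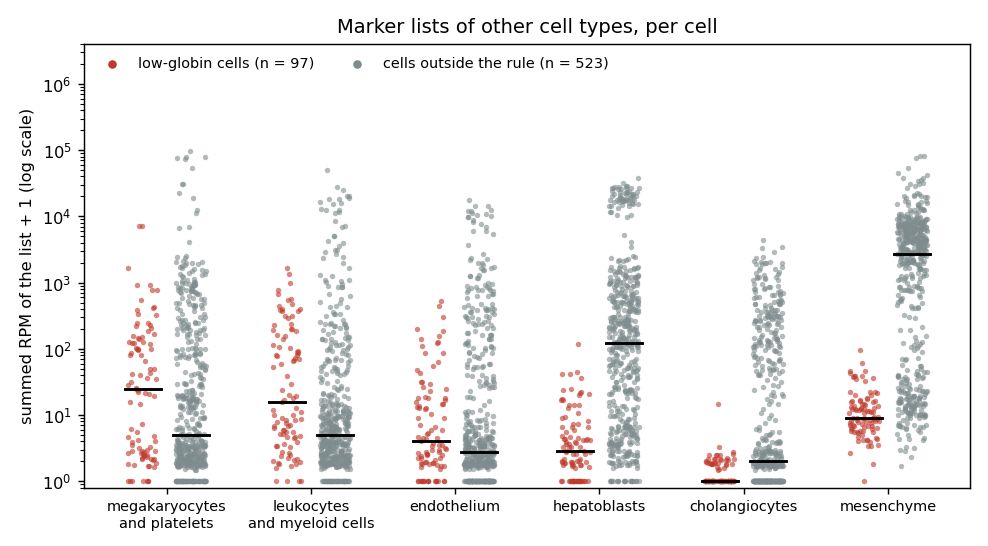
Summed RPM plus 1, on a log scale, of the markers of 6 other cell types in each low-globin cell and each of the 523 cells outside the rule, with bars for medians. In low-globin cells hepatoblast, cholangiocyte and mesenchyme markers stay at or under 117.9 RPM, while megakaryocyte and leukocyte markers reach 7102 and 1636 RPM.

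Against all other cells, the low-globin cells carried more RNA of the erythroid regulators, of some haem and iron genes and of ribosome biogenesis, and almost none of the liver and stromal genes. A gene was called higher or lower where its summed level differed at least 2-fold, as a log2 ratio with 1 RPM added, and in the same direction in every pool compared. Of 11597 genes measured at 5 RPM or more, 456 were called higher (3.93%) and 3120 lower (26.9%), and the median log2 ratio of all genes was −0.23. The 556 other cells include the globin-high cells and are mostly of other lineages. Of them 69.8% were of E10.5, while 71 of the 97 low-globin cells were of E13.5, and with E13.5 cells alone 28.7% of these higher calls and 34.6% of these lower calls were made again. Klf1, Gata1 and the adult globins follow from the rule.

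Among 21 measured erythroid transcription factors, 10 were called higher and 2 lower, with a median log2 ratio of 1.42 (1.23 to 1.70 over pools). That median was 0.48 without cells with markers of another type in any class, which makes globin-high cells a larger part of the rest. Beside Klf1, Gata1 and Myb, the higher genes were Tal1 and Ldb1, which form a complex with Gata1, Nfe2, Gfi1b, Ikzf1, Zbtb7a and E2f4. Tal1 ran from 0 to 615 RPM per cell with a median of 123.8 RPM, and summed to 128.1 RPM against 29.3 RPM in all other cells. Gfi1b, a repressor needed for red cells and platelets, had a median of 308 RPM per cell (0 to 2770 RPM) and summed to 438 RPM against 79.1 RPM. The lower genes were Bach1, a repressor that haem inactivates, and Sox6, a repressor of embryonic globin, which had a median of 0.64 RPM per cell and summed to 17.98 RPM against 131.4 RPM.

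Haem synthesis genes were called in part. Of 13 measured, 4 were called higher and none lower than in all other cells, and the median log2 ratio of 0.97 turned to −0.45 without cells with markers of another type in any class. Cpox, the coproporphyrinogen oxidase, ran from 0 to 3778 RPM per cell with a median of 679.9 RPM, a log2 ratio of 2.48 (1.76 to 3.74). Alad, which makes porphobilinogen, ran from 7.73 to 5747 RPM with a median of 1563 RPM, a log2 ratio of 1.35 (0.49 to 1.79). The mitochondrial porphyrin carrier Tmem14c was called higher too. For Alad and Tmem14c the direction rests on which other cells are taken: it turned when cells with markers of another type were left out of every class. The 110 other cells then left include most globin-high cells, so this turn is not a comparison with other lineages alone. Of 16 genes listed for the pathway, 3 have no reads in any cell, globin-high cells included, among them Alas2, the red cell form of the first enzyme. Whether their reads were lost in counting was not tested, so these zeros say nothing about expression.

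Of 15 iron genes, 4 were called higher and 1 lower. Tfr2, the second transferrin receptor and a partner of the erythropoietin receptor, ran from 0 to 1010.4 RPM per cell with a median of 95.4 RPM, and summed to 158.4 RPM against 13.6 RPM, a log2 ratio of 3.45 (2.05 to 4.34). Tfrc, the main transferrin receptor, was over 10 reads in 92 of the 97 cells, with a median of 231 RPM and a sum of 288 RPM against 116.01 RPM. Its direction turned when other cells with markers of another type were left out, as did that of the biliverdin reductase Blvrb. Globin-high cells are a larger part of the cells then left.

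Membrane and skeleton genes were mixed. Of 24 measured, 7 were called higher and 2 lower, with a median log2 ratio of 1.09 that ran from −0.52 to 1.55 over pools. That median turned to −0.25 when cells with markers of another type were left out of every class, which makes globin-high cells a larger part of the rest. Ermap, the Scianna blood group protein, was among the most lineage-bound, with a median of 817 RPM per cell (0 to 3273 RPM) and more than 10 reads in 87 of 97 cells but in 35 of 523 cells outside the rule. Ank1, ankyrin of the membrane skeleton, had a median of 55.8 RPM with a log2 ratio of 2.44 (1.11 to 3.03). Slc4a1, the band 3 anion exchanger of mature red cells, was over 10 reads in 1 of the 97 cells.

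Receptors and signals of the progenitor stage were divided. Epor, the erythropoietin receptor, had a median of 258 RPM per cell (0 to 1357 RPM) and a log2 ratio of 2.20 (1.31 to 2.48). Kit ran from 0 to 449 RPM with a median of 51.1 RPM, over 10 reads in 62 cells, with a log2 ratio of 1.93 (0.73 to 3.28). Of 14 measured genes of erythropoietin and Kit signalling, 3 were called higher and 4 lower, and the median log2 ratio was −0.04. The lower genes were Bcl2l1, Socs2, Socs3 and Spry1, the last 3 being inhibitors of receptor signalling. Their share of the list is close to the 26.9% of all genes called lower.

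Genes of earlier blood progenitors were divided, and their direction depended on the other cells. Of 13 measured, 3 (Kit, Myb and Slc22a3) were called higher and 7 lower, among them Meis1, Hoxa9, Mecom, Hlf and Erg, with a median log2 ratio of −1.76 that went to 0.02 without cells with markers of another type in any class. Meis1 was over 10 reads in 12 of the 97 cells, against 266 of the 523 cells outside the rule, which are mostly not blood cells.

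Among growth genes, calls lay in ribosome biogenesis more than in ribosomal proteins or the cell cycle. Of 18 ribosome biogenesis genes, 9 were called higher and 1 (Mycn) lower, with a median log2 ratio of 1.16 (0.75 to 1.26). That median was 0.72 without cells with markers of another type in any class. Of 72 ribosomal protein genes, 3 were called higher, a share close to the 3.93% of all genes, with a median log2 ratio of 0.62. Myc, which drives ribosome production, ran from 0 to 1806 RPM per cell with a median of 329.8 RPM, and summed to 394 RPM against 101.6 RPM. Ncl, the nucleolar protein nucleolin, was over 10 reads in all 97 cells and summed to 2954 RPM against 1187 RPM. Of 22 DNA replication genes 1 (Mcm5) was called higher, and of 22 mitosis genes 1 (Cenpf) was called lower, with medians of 0.54 and 0.06. Among 12 cyclins and inhibitors, Cdk6 was called higher, while Ccnd1, Ccnd2 and the inhibitor Cdkn1c were called lower, a share close to the 26.9% of all genes. Cdkn1c, an imprinted brake on division, was at 2.63 RPM in the low-globin cells and 799 RPM in all other cells.

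By the size of the ratio, Ccnb1ip1 led the genes called higher, with a median of 62.96 RPM per cell (0 to 1297 RPM), more than 10 reads in 61 of 97 cells and in 6 of 523 cells outside the rule. Of its 50-base windows, 10% occur elsewhere. It was followed by Myb, Tfr2, the mitochondrial carrier Slc25a21, Tnfaip2 and Gata1. Slc25a21 had a median of 385 RPM per cell (0 to 3076 RPM) and summed to 536 RPM against 65.4 RPM. Pklr, the red cell and liver pyruvate kinase, was called higher (199.4 RPM against 29.1 RPM), and Pkm, the common form, lower (339.6 RPM against 889.5 RPM). Car2, the carbonic anhydrase, was over 10 reads in all 97 cells at 237 to 8551 RPM. Its direction turned when other cells with markers of another type were left out, which makes globin-high cells a larger part of the rest.

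**Figure D3:**
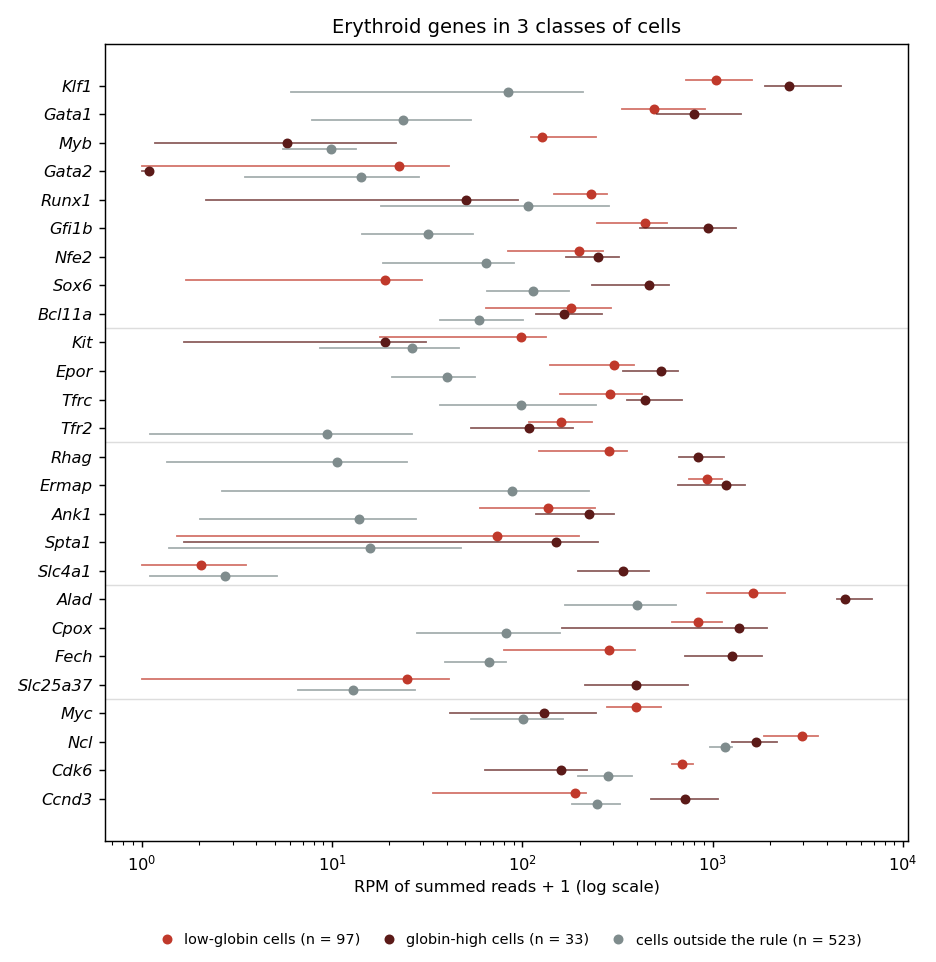
RPM of summed reads plus 1, on a log scale, of erythroid, progenitor and growth genes in the low-globin cells, the globin-high cells and the cells outside the rule, with bars for the range over pools with 3 or more cells of the class. Myb, Kit, Cdk6 and Myc are highest in the low-globin cells, while Slc4a1, Sox6, Slc25a37 and Fech are highest in the globin-high cells.

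Against the globin-high cells, the low-globin cells had more Myb, Kit, Runx1, Cdk6 and Myc RNA and less RNA of haem enzymes and membrane proteins. Of 9167 genes measured, 1390 were called higher (15.2%) and 2.21% lower, and the median log2 ratio of all genes was 0.33. Centred on that median, 735 genes were called higher and 530 lower, so the split between directions depends on the scaling. Both classes were cut from the globin sum, so these values describe the classes and test nothing. The globin-high class held 33 cells, almost all of E13.5, and pools 1, 3, 4 and 5 had at least 3 cells of each class.

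Myb had the highest ratio of the label's markers. It summed to 126.4 RPM (counting interval 124.3 to 128.5) in the low-globin cells and to 4.77 RPM in the globin-high cells, a log2 ratio of 4.47 (2.36 to 6.69). The cells overlapped, since 22 low-globin cells had 10 reads or fewer of Myb and 1 globin-high cell reached 121.5 RPM. Kit had a log2 ratio of 2.39 (2.10 to 3.42), with more than 10 reads in 62 of 97 against 4 of 33 cells. Without cells that carried markers of another type, the ratios were 4.35 for Myb and 2.18 for Kit.

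The other early genes followed with fewer cells behind them. Of 8 measured early progenitor genes, Kit, Meis1, Myb and Slc22a3 were called higher and none lower, with a median log2 ratio of 4.23 (0.35 to 4.64 over pools). A gene was measured where either class reached 5 RPM, and the 15 listed genes summed to 359 RPM against 33.6 RPM. Genes near 0 in the globin-high cells were thus measured only through the low-globin cells. The lack of lower calls and the size of the median follow in part from this. Meis1 and Slc22a3 were over 10 reads in 12 and 17 low-globin cells and in 0 globin-high cells. Gata2, the factor that Gata1 replaces, was over 10 reads in 16 low-globin cells and 0 globin-high cells, and was not called. In these classes, 3 of 13 megakaryocyte genes and 3 of 8 leukocyte genes were also called higher and none lower, with summed levels of 263 against 133.5 RPM and of 133.5 against 81.8 RPM. Without the cells with markers of another type, the median of the megakaryocyte genes turned from 2.78 to −0.14. That step takes out cells by their reads of these same genes, so a fall of this median was built in. The median of the early progenitor genes went from 4.23 to 2.58, and the ratio of Meis1 from 4.34 to 2.98.

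Erythropoietin and Kit signalling had 4 of 12 measured genes higher and none lower, namely Kit, the kinase Pim1 and the transcription factors Stat5a and Stat5b. Of all genes, 15.2% were called higher and 2.21% lower. Genes near 0 in the globin-high cells were again measured only through the low-globin cells, so the lack of lower calls follows in part from this. Pim1 also differed with stage, at 32.5 RPM in E10.5 and 5.30 RPM in E13.5 low-globin cells, and the globin-high cells were almost all of E13.5. Stat5a summed to 41.4 RPM against 6.89 RPM, a log2 ratio of 2.43 (2.01 to 3.37). Epor itself was at 303 against 535 RPM, a log2 ratio of −0.82 (−0.99 to −0.53), and was not called.

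Transcription factors divided between the classes. Of 21 measured, Ldb1, Myb and Runx1 were called higher, a share close to the 15.2% of all genes, and Klf1, Gfi1b, Sox6, E2f2, E2f4 and Foxo3 lower, against 2.21% of all genes, with a median log2 ratio of −0.64. Runx1, a factor of early blood cells, had a median of 124.6 RPM per cell against 1.35 RPM and summed to 227 against 49.3 RPM. Sox6 had the largest fall, from 464 RPM in the globin-high to 17.98 RPM in the low-globin cells, a log2 ratio of −4.61 (−5.74 to −4.11), and was over 10 reads in 24 of 33 against 20 of 97 cells. Tal1 (128.1 against 145.4 RPM) and Nfe2 (197.2 against 249 RPM) were not called.

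RNA of most measured haem synthesis genes was lower. Of 13 genes, 8 were called lower and 1 higher, with a median log2 ratio of −1.60 (−1.54 to −1.07 over the pools), while the median of all genes was 0.33. Alad had a median of 1563 RPM per low-globin cell (7.73 to 5747 RPM) and of 4815 RPM per globin-high cell (873 to 10492 RPM), a log2 ratio of −1.60 (−1.67 to −1.28). Fech, the ferrochelatase that inserts iron, had a log2 ratio of −2.15 and Urod −1.61. Cpox was at 839 against 1373 RPM and was not called. The gene called higher was Alas1, the form of the first enzyme used outside red cells, at 14.3 against 2.84 RPM.

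Iron genes did not move as a group, with 2 of 14 called higher, 3 lower and a median of −0.07. Slc25a37, mitoferrin of the red cell, was at 23.6 against 396 RPM, over 10 reads in 24 of 97 against 26 of 33 cells, a log2 ratio of −4.01 (−8.64 to −2.37). The ferritin gene Fth1 and Blvrb were called lower too. The transferrin receptors were not called, with Tfrc at 288 against 442 RPM and Tfr2 at 158.4 against 107.4 RPM.

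Membrane genes were called lower in 8 of 23 cases and higher in none, with a median log2 ratio of −1.23. Slc4a1 was at 1.05 RPM (0.869 to 1.26) in the low-globin cells, where a single cell had more than 10 reads, and at 336 RPM in the globin-high cells, where 24 of 33 had. Its log2 ratio of −7.36 (−8.32 to −6.68) was the largest fall outside the globins that the rule used. Rhag and Rhd, of the Rh complex, had ratios of −1.55 and −2.29, and Sptb, Dmtn, Tmod1 and Tspan33 of the membrane and its skeleton were also called lower. Ermap was at 929 against 1167 RPM and was not called.

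Among division genes, Cdk6 was higher at 687 against 158.4 RPM, a log2 ratio of 2.11 (1.58 to 3.39). The D cyclins went opposite ways. Ccnd2 was at 106.1 against 38 RPM and called higher, and Ccnd3, the D cyclin that sets the number of divisions of late erythroblasts, was at 187.1 against 717 RPM and called lower. Of 22 replication genes, Cdc6, Rrm2, Slbp and Fen1 were called lower and none higher, with a median of −0.58. Of 17 ribosome biogenesis genes, Myc, Polr1b and Wdr43 were called higher, a share close to that of all genes, and none lower, with a median of 0.58.

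By the size of the ratio, the intermediate filament gene Vim led the genes called higher, at 115.9 against 1.37 RPM, with more than 10 reads in 37 of 97 and in 0 of 33 cells, a log2 ratio of 5.63 (4.33 to 6.53). Ptprcap, which encodes a partner of CD45, was next at 214 against 7.81 RPM and over 10 reads in 61 of 97 against 2 of 33 cells. Without the cells with markers of another type, these ratios were 4.67 and 4.26. The adhesion receptor Cd44 was at 172.9 against 57.9 RPM and called higher, and Cd24a, a surface protein, at 237 against 994 RPM and called lower. Beside the globins, Slc4a1, Sox6, Slc25a37, Cdc25b, Dmtn and Hemgn were among the genes with the largest falls.

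**Figure D4:**
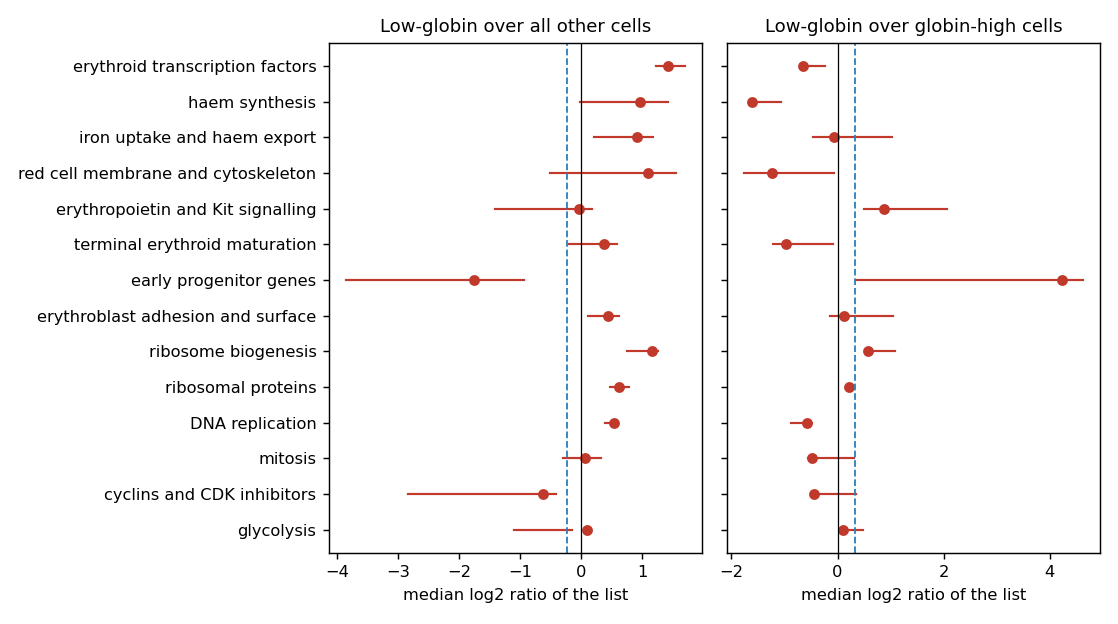
Median log2 ratio of each gene list in the low-globin cells against all other cells and against the globin-high cells, with lines for the range over pools and a dashed line for the median of all genes. Erythroid factors stand at 1.42 and −0.64, haem synthesis at 0.97 and −1.60, and early progenitor genes at −1.76 and 4.23.

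The low-globin cells were not uniform among themselves. Myb and Kit were both over 10 reads in 51 cells, Myb alone in 24, Kit alone in 11 and neither in 11.

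Within the 97 cells, genes were ranked by their Spearman correlation with the summed adult globin level. As a description over single cells, which share pools and depth, the highest of 4161 genes included the peroxiredoxin gene Prdx2 (0.52), Mgst3 (0.46), Fth1, Tspan33 and Rfc4. The lowest was Apoe, which encodes apolipoprotein E (−0.51), followed by H2afy, Samsn1, Gm42826 and S100a10. Klf1 stood at 0.34, Rhag at 0.32, Kit at −0.15 and Myb at −0.21. Reads and detected genes per cell stood at −0.06 and −0.03.

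Between stages, most erythroid genes of the low-globin cells lay within 2-fold, while the embryonic globin Hbb-bh1 did not. Of 9344 genes measured, 456 were called higher in the 26 E10.5 cells (4.88%) and 654 higher in the 71 E13.5 cells (7.0%), with a median log2 ratio of 0.03. Pools 3, 4 and 5 had at least 3 cells of both stages. The E10.5 cells had a median of 5954 detected genes after thinning and the E13.5 cells 5368.

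Hbb-bh1, the embryonic beta-like globin of yolk sac red cells, differed most. In E10.5 cells it ran from 0 to 24718 RPM with a median of 129.4 RPM, over 10 reads in 18 of 26 cells, and in E13.5 cells from 0 to 1714 RPM with a median of 1.02 RPM, over 10 reads in 12 of 71. The sums were 1495 RPM (1481 to 1508) and 23.3 RPM (22.3 to 24.4), a log2 ratio of 5.94 (2.81 to 9.09). A single E10.5 cell held 35% of the E10.5 reads, and without it the level was 993 RPM and the log2 ratio 5.35. The other embryonic globins did not follow: Hba-x was at 48.2 against 45 RPM and Hbb-y at 14.7 against 33.7 RPM. With the embryonic globins added to the limit of 2000 RPM, 92 of the 97 cells would remain, 22 of 26 at E10.5 and 70 of 71 at E13.5.

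The marker genes differed little between stages. Klf1 was at 1006 RPM in E10.5 and 1060 RPM in E13.5 cells, Gata1 at 403 and 523, Myb at 120.8 and 128.8, Rhag at 213 and 315, and Kit at 99.4 and 97.2 RPM. None of these was called. Of 21 erythroid factors none was called higher at E10.5 and 2, Lmo2 and Mxd1, were called lower. Of 13 haem genes 1, Fam210b, was called lower.

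Iron and membrane genes had medians of −0.70 and −0.64 with none higher at E10.5 and 3 lower in each list. The iron genes were Ireb2, Hmox1 and the ferritin gene Ftl1, whose level is uncertain since 58.4% of its 50-base windows occur elsewhere. The membrane genes were the water channel Aqp1, Dmtn and Tspan33. Cd24a was called lower as well, at 102.05 RPM in E10.5 and 294 RPM in E13.5 cells.

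Glycolysis had 3 of 15 genes called higher at E10.5, Pfkp, Pgam1 and Pkm, and 1, Gapdh, lower. Pkm was at 539 against 256 RPM, a log2 ratio of 1.07 (0.67 to 1.44). The troponin gene Tnni1 was at 120.2 against 5.29 RPM, with a median of 11.9 RPM per E10.5 cell and 0 RPM per E13.5 cell, and Pim1 at 32.5 against 5.30 RPM. Vim was called higher too, at 225 against 69.9 RPM.

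Megakaryocyte and leukocyte genes had higher sums at E10.5, but few of them were called. The megakaryocyte genes summed to 501 RPM in E10.5 and 162.5 RPM in E13.5 cells, with 1 of 13 called higher, Itga2b, the platelet integrin also found on early blood progenitors (99.7 against 20.7 RPM). The leukocyte genes summed to 258 against 81.1 RPM, with 2 of 8, Mpo and Laptm5, called higher. Without cells with markers of another type, the median ratio of the megakaryocyte genes turned from 1.75 to −0.23, that of Vim went from 1.68 to 0.89 and that of Tnni1 from 4.27 to 3.78. Because that step takes out cells by their reads of megakaryocyte genes, a fall of the megakaryocyte median was built in. Leaving out pool 4 also turned the megakaryocyte median, to −0.72.

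Nfkbia, which encodes the inhibitor of NF-kB and is itself induced by it, was the best detected of the 12 genes with the largest ratios among those called higher at E13.5. It ran from 0 to 7562 RPM with a median of 1087 RPM in E13.5 cells, and from 0.624 to 1078 RPM with a median of 48.9 RPM in E10.5 cells. The sums were 1559 and 131.9 RPM, a log2 ratio of −3.55 (−3.79 to −2.90), and the cells of the stages overlapped. Pik3r1, a regulatory subunit of phosphatidylinositol 3-kinase, was at 86 against 10.6 RPM, and Zfp36l2, an RNA-binding protein of erythroid progenitors, at 81.4 against 13.8 RPM. Epdr1 had the largest ratio, at 126.04 against 3.46 RPM. The globin-high cells, nearly all of E13.5, held 1172 RPM of Nfkbia. The part of the longer digestion at E13.5 in these values was not tested.

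**Figure D5:**
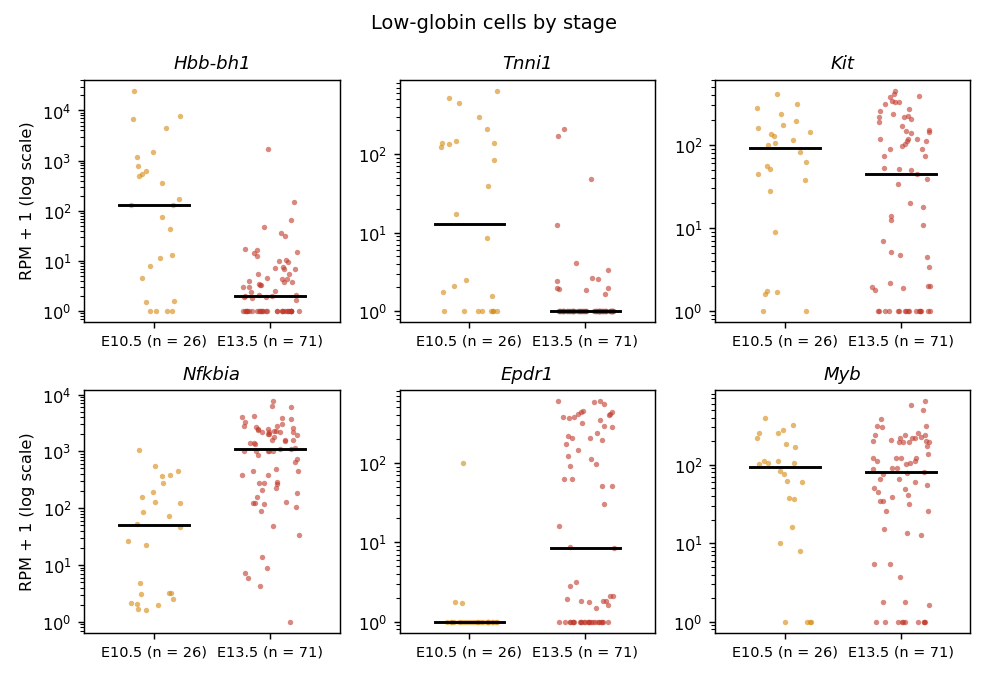
RPM plus 1 per low-globin cell at E10.5 (26 cells) and E13.5 (71 cells) of 6 genes, on a log scale with bars for medians. Hbb-bh1 and Tnni1 are higher at E10.5, with medians of 129.4 and 11.9 RPM against 1.02 and 0 RPM, Nfkbia and Epdr1 are higher at E13.5, and Kit and Myb overlap widely.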

How the data were processed

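Livers were sorted into single cells and sequenced by Smart-seq2, without molecular identifiers. The authors aligned reads with STAR 2.6.0c to GRCm38.p6 and counted uniquely aligned reads per gene with featureCounts of Subread 1.6.2. The deposited table holds raw counts of 54195 genes in 653 cells (203 bulk and 211 Lgr5-GFP+ at E10.5, 159 and 80 at E13.5), of which 25903 genes are listed at 0 in every cell. The deposited table of normalised scores was not used.

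Levels are RPM of reads summed over the cells of a class, and log2 ratios have 1 RPM added. Genes named were the markers, up to 5 members of each list, the 12 called genes with the largest ratio in each direction among protein-coding genes with 3 or more reads in at least 50% of the cells of the higher class, and 6 genes at each end of the globin correlation. Further list members with a call were named after their values were seen. Cells and lists were chosen with earlier results of these data known. Intervals are exact Poisson for levels and Clopper-Pearson for shares. For levels they treat amplified copies of a molecule as separate counts, so they are too narrow and do not cover the spread between cells. Python 3.11.15, numpy 2.4.6, pandas 2.3.3 and scipy 1.17.1 were used, and the scripts were tested on simulated data. Some genes that met these rules are not reported here.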

Additional observations from a re-analysis of the deposited data

How the results depend on the processing

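The number and shares of low-globin cells kept to within their counting intervals or 1.5 times under the other limits on Klf1, Gata1 and globin and after thinning. Among bulk cells alone the shares were 12.8% at E10.5 and 44.03% at E13.5. Leaving out each pool in turn gave 63 (without pool 4) to 90 low-globin cells, shares of 4.23% to 7.67% at E10.5 and 25.7% to 36.5% (without pool 2) at E13.5. Gene counts are given as percentages of the genes measured. Leaving out a pool, so that fewer pools had to share a direction, gave 4.49% to 6.23% (without pool 2) higher and 27.8% to 29.6% lower than in all other cells, 15.4% to 20.9% higher and 2.20% to 4.46% (without pool 1; 3.57% without pool 4) lower than in globin-high cells, and 4.94% to 9.23% (without pool 3; 9.22% and 8.84% without pools 4 and 5) higher and 7.38% to 13.07% (without pool 4; 10.6% without pool 5) lower at E10.5 than at E13.5. With no condition on pools, 9.23% were higher than in all other cells, 26.4% higher and 9.49% lower than in globin-high cells, and 13.9% higher and 12.6% lower at E10.5. Centred on the median ratio, 6.92% were higher than in all other cells, and 8.02% higher and 5.78% lower than in globin-high cells. With E13.5 cells alone, 2.22% were higher and 11.8% lower than in all other cells. With no filter on low levels, which adds genes with few reads to the total, the percentages were 1.64% and 13.6%, 7.09% and 0.924%, and 2.21% and 3.80%, higher and lower in the same order.

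Some directions turned. With E13.5 cells alone, the log2 ratio of Emb against globin-high cells was −0.37, and with bulk cells alone that of Apoe against all other cells was 0.15. Without Klf1 and Gata1 cells that carried markers of another type, the median against globin-high cells was −0.14 for megakaryocyte and 0.13 for hepatoblast genes, and the megakaryocyte median between stages was −0.23. That step takes out cells by their reads of these same lists, so such changes were in part built in. The megakaryocyte median between stages ran from −0.72 (without pool 4) to 2.94 when pools were left out. The cause was not tested. Over 18 alternatives on the cells, the scaling and the pseudocount, 8658 of 8949 gene values and 1316 of 1379 list medians kept their sign. Part of this tally was fixed in advance. The pseudocounts of 0.1 and 5 RPM cannot change a sign, and the limit of 5 reads on Klf1 and Gata1 picked the same 97 cells.

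An alternative chosen after seeing the data left out every cell with markers of another type, which kept 110 of 556 other cells. It took out 443 of the 523 cells outside the rule but 3 of the 33 globin-high cells, which became a larger part of the rest. Cells were picked by megakaryocyte, leukocyte and endothelium genes among others, so changes in the medians of these lists were in part built in. The shares were then 39.5% and 42.9%, 1.76% of genes were lower than in all other cells, and 18 of 98 called named genes and the medians of 6 of 16 lists past 2-fold turned against all other cells: red cell membrane (−0.25), early progenitor (0.02), erythroid marker (−0.44), megakaryocyte (0.07), leukocyte (0.13) and endothelium genes (0.08). Against globin-high cells 0 of 73 such genes turned. Of the main calls against all other cells, 17.3% of the higher and 3.08% of the lower ones were made again. Other alternatives added after seeing the data put the embryonic globins into the limit (92 cells) or took only other cells without Klf1 and Gata1. No paired analysis was possible because the labels name no animal, each group counts as 1 sample and no test was made; directions were instead compared within pools.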
